A study of Mus musculus with 9 samples.

Results

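The cadherins and the non-clustered protocadherins were followed in bone marrow (BM) endothelial cells (ECs) of normal wt mice. Members were the rows of the deposited count table whose gene name is Cdh or Pcdh followed by digits only, with Cdh5 (VE-cadherin) set aside as the marker of the endothelial lineage. This gave 33 genes of the 46078 in the table, 22 named Cdh and 11 named Pcdh. ECs of B6 wild-type mice were sorted as CD45-Ter119-CD31+ cells and split by Sca-1, with no treatment, and the ages are not given in the sources used here. The Sca-1+ fraction had 4 libraries and the Sca-1- fraction 5. They are named here by the number at the end of their labels, 7, 13, 15 and 19 for Sca-1+ and 8, 10, 14, 16 and 22 for Sca-1-. In the study's account Sca-1high ECs line arteries and arterioles, and Sca-1low ECs border sinusoids. The labels name the sequenced fractions Sca-1+ and Sca-1- instead. The labels also differ in other ways. Those of 13, 14 and 22 carry a CD45 tag and that of 10 a shortened form of it. Those of 8, 15, 16 and 19 read wt instead, and that of 7 has neither. The tag thus occurs in both fractions, and it was not fitted as a block. The labels of 15 and 16 share a further number, which may mean that they came from the same mouse. The labels do not say that the libraries came from separate mice, so p-values measure the spread between these libraries.

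Cadherins are calcium-dependent adhesion proteins that hold neighbouring cells together through repeated extracellular domains. Classical cadherins (type I and type II) bind like cadherins on the next cell and are tied to actin through catenins. Protocadherins share the extracellular repeats but not the catenin-binding tail, and the delta protocadherins signal through short motifs in their tails, some of which recruit the WAVE complex of actin regulators or protein phosphatase 1. T-cadherin (Cdh13) has no tail at all and is held in the membrane by a lipid anchor. In the endothelium VE-cadherin forms the adherens junction, while N-cadherin and T-cadherin are found outside it.

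The libraries held between 21581653 and 25959818 counts each, and 3 counts, taken as the floor of a library, stood for 0.0996 to 0.209 CPM (counts scaled to library size by TMM). Ly6a, which encodes Sca-1, had a mean of 1133 CPM (SD 187, n = 4) in the Sca-1+ fraction and of 0.678 CPM (SD 0.524, n = 5) in the other. The labels open with running numbers that are separate for each fraction, and a batch by this number cannot be told apart from the fraction. The Sca-1- libraries stood apart from the EC label in their markers. The summed level of 15 general endothelial markers was 9060 to 10900 CPM in Sca-1+ ECs and 1100 to 4320 CPM in Sca-1- ECs, and that of 15 megakaryocyte and platelet markers was 105 to 182 CPM against 26600 to 115000 CPM. Pecam1 (mean 836 CPM) and Esam (mean 1031 CPM) gave most of the endothelial sum in Sca-1- ECs. These 2 were not called, and the other 13 were higher in Sca-1+ ECs under TMM scaling, against 23.3% of all genes tested. Library 10 had the highest endothelial sum of the Sca-1- libraries but the lowest Cdh5 (2.44 CPM). Of 8 sinusoidal markers 7 were higher in Sca-1+ ECs under TMM scaling (edgeR's quasi-likelihood test, adjusted p under 0.05). All 10 arterial markers were higher as well, against 23.3% of all genes tested. Lyve1, the other sinusoidal marker, was lower (log2 fold change -6.25), with means of 1.26 CPM in Sca-1+ ECs and 96.4 CPM in Sca-1- ECs. In such sorted bulk samples fewer cells of a type and less RNA per cell cannot be told apart, and this holds for every member below.

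Of the 33 members, 6 had no count in any library (Cdh7, Cdh8, Cdh10, Cdh12, Cdh17 and Cdh18), and 8 stayed under 10 counts in every library (Cdh9, Cdh16, Cdh19, Cdh20, Cdh22, Pcdh8, Pcdh10 and Pcdh15). Another 5 reached 10 counts in a library but did not pass edgeR's filter on low counts. The 14 that passed were tested among 15937 genes. Of these 14, 6 were higher in Sca-1+ ECs, 3 were lower and 5 were not called, and each of the 9 called differed at least 2-fold. Over all genes tested 23.3% were called higher and 21.4% lower, 44.8% in all. The median log2 fold change was 1.79 over the tested members and 0.07 over all genes tested. In 7 members every Sca-1+ library lay above every Sca-1- library, and in 2 the reverse held, where 24.8% and 18.8% of all genes did so.

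The directions depended on how the libraries were made comparable. With TMM, upper-quartile or library-size scaling the 14 members kept the signs given here. When the libraries were instead scaled to the general endothelial markers, the median log2 fold change of all genes tested moved to -4.00, 2 members (Pcdh1 and Pcdh17) were higher (1.61% over all genes), 7 were lower (87.1%), and Cdh13, Cdh4, Cdh6, Cdh11 and Cdh2 changed sign. Library-size scaling moved that median to 0.43. Under the endothelial scaling Cdh5, itself among the markers scaled to, kept a log2 fold change of 1.24, so this scaling did not level Cdh5 between the fractions.

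**Figure D1:**
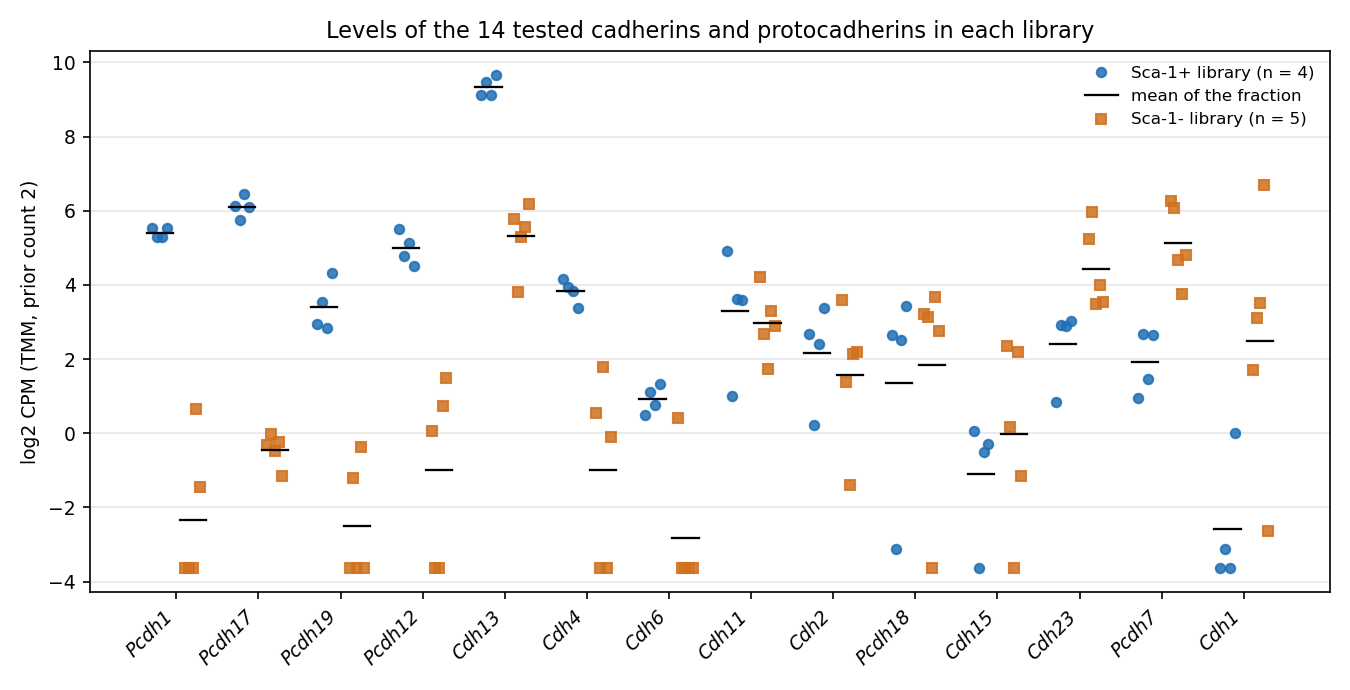
Level of each of the 14 tested members in every library as log2 CPM (TMM-scaled, prior count 2), with Sca-1+ libraries as blue circles (n = 4), Sca-1- libraries as orange squares (n = 5) and the mean of each fraction as a black bar. Members are ordered by log2 fold change. A library with 0 counts sits at -3.63. The fractions did not overlap in the 7 members on the left or in Cdh23 and Pcdh7, while Cdh11, Cdh2, Pcdh18, Cdh15 and Cdh1 overlapped. Under scaling to the general endothelial markers Cdh13, Cdh4, Cdh6, Cdh11 and Cdh2 changed sign.

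The delta-2 protocadherins, which act in cell sorting and in the sliding of one cell along another, had 6 members, of which 4 were tested. Under TMM scaling 3 were higher in Sca-1+ ECs and none was lower, against 23.3% and 21.4% of all genes. Under scaling to endothelial markers Pcdh17 alone was higher and Pcdh18 was lower, against 1.61% and 87.1% of all genes. Pcdh17 (ENSMUSG00000035566, GRCm38 chr14:84443563-84539002) encodes a protocadherin known from axons and synapses that recruits the WAVE complex. It was counted at 70.0, 54.0, 87.0 and 68.5 CPM in Sca-1+ libraries 7, 13, 15 and 19, and at 0.721, 0.908, 0.636, 0.764 and 0.366 CPM in Sca-1- libraries 8, 10, 14, 16 and 22. Every Sca-1+ library lay far above every Sca-1- library, and both fractions were tight. In log2 terms the fractions differed by 6.69 (SE 0.31, adjusted p = 3.32e-06, edgeR's quasi-likelihood test), and it was called under all 22 alternative fits, at 2.53 to 7.11.

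Pcdh12 (ENSMUSG00000024440, chromosome 18), also known as VE-cadherin-2, is a protocadherin of endothelial and trophoblast cells. It stood at 45.7, 27.5, 35.1 and 22.6 CPM in the Sca-1+ libraries and at 0.961, 0, 0, 1.59 and 2.73 CPM in the Sca-1- libraries in the same order. No library crossed over, and 2 Sca-1- libraries had no count. The test put the difference at 4.91 in log2 (SE 1.04, adjusted p = 0.00335, edgeR).

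Pcdh19 (ENSMUSG00000051323, GRCm38 chrX:133582860-133688987) encodes a protocadherin that pairs with N-cadherin and whose loss in humans causes an epilepsy. It was counted at 7.67, 11.6, 7.04 and 19.98 CPM in the Sca-1+ libraries and at 0, 0.349, 0, 0.697 and 0 CPM in the Sca-1- libraries. All Sca-1+ libraries lay above, and 3 of the 5 Sca-1- libraries had no count. This was a log2 fold change of 5.71 (SE 1.15, adjusted p = 0.00255, edgeR). Its exons overlap those of Gm26851 on the other strand, and the strand setting of the counting is not given in the sources used here, so these counts are uncertain in part.

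Pcdh18 (ENSMUSG00000037892, chromosome 3), which binds the adaptor Dab1, was counted at 6.17, 0.034, 5.63 and 10.7 CPM in the Sca-1+ libraries and at 9.19, 8.73, 0, 12.8 and 6.64 CPM in the Sca-1- libraries. The fractions overlapped, with 1 library near or at 0 in each, number 13 and number 14. As a log2 fold change this was -0.40 (95% interval -3.19 to 2.38, adjusted p = 0.816, edgeR). Pcdh8 and Pcdh10 did not exceed 1 count in any library.

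Upstream sequence was compared for members on either side of the difference. RefSeq promoters (build GRCm38.p6) were matched for 7 of the 14 tested members. The 250 bases before the start site are shown for Pcdh17 and Pcdh19, delta-2 protocadherins higher in Sca-1+ ECs, and for Cdh23, which was lower. They lie at chr14:84443313-84443562 (plus strand), chrX:133688994-133689243 (minus strand) and chr10:60696491-60696740 (minus strand). Capitals mark GATA, the core read by GATA factors, and GGAA, the core read by ETS factors, each on either strand (TATC and TTCC on the other). All are written 5′ to 3′.
Pcdh17: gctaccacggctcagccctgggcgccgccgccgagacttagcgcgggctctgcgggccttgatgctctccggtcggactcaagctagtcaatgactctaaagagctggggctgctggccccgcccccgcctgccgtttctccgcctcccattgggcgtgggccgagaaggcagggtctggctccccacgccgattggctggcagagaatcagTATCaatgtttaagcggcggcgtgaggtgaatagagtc
Pcdh19: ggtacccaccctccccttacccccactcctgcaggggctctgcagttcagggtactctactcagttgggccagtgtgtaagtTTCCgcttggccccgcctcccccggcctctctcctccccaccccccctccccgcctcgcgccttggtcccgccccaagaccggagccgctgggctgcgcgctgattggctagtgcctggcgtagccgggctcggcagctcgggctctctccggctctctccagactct
Cdh23: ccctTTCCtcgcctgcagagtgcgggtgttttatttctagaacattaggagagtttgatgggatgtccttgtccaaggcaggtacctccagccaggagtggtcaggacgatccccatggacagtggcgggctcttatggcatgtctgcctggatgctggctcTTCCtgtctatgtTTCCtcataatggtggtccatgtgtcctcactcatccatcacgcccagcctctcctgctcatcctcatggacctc
Pcdh17 held 1 GATA and 0 GGAA, Pcdh19 held 0 GATA and 1 GGAA, and Cdh23 held 0 GATA and 3 GGAA. Among 27025 promoters of the same length 54.1% held GATA and 93.4% held GGAA. The share of G and C was 64.8% for Pcdh17, 69.2% for Pcdh19 and 54.4% for Cdh23, against a median of 52.0% over all promoters. On either strand, ACAAT (the core of SOX sites, in 28.3% of promoters) was in none of the 3, and CANNTG (the E-box, in 66.0%) was found once in Pcdh19, once in Cdh23 and not in Pcdh17. These matches are letters in a window and were not related to binding.

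The delta-1 protocadherins, whose tails carry a protein phosphatase 1 motif, had 4 members, and the 2 that were tested differed in opposite directions, under TMM and under scaling to endothelial markers alike. Pcdh1 (ENSMUSG00000051375, chromosome 18), known in airway epithelium and as an entry receptor for hantaviruses on endothelium, was counted at 46.2, 38.8, 39.0 and 46.6 CPM in the Sca-1+ libraries. In the Sca-1- libraries it had 0 counts in 8, 10 and 14 and stood at 1.49 CPM in 16 and 0.285 CPM in 22. The Sca-1+ libraries were close to each other and every one lay above the Sca-1- libraries. The difference was 6.73 on the log2 scale (SE 1.09, adjusted p = 0.000737, edgeR), and it was called under all 22 alternative fits, at 2.95 to 8.89. Pcdh1 and Pcdh12 are neighbours, 55.0 kb apart on chromosome 18.

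Pcdh7 (ENSMUSG00000029108, GRCm38 chr5:57717967-58133230) encodes a delta-1 protocadherin that binds protein phosphatase 1. It stood at 1.84, 6.30, 2.66 and 6.16 CPM in Sca-1+ libraries 7, 13, 15 and 19. In Sca-1- libraries 8, 10, 14, 16 and 22 it stood at 77.3, 67.2, 25.3, 13.5 and 28.1 CPM. Every Sca-1- library lay above every Sca-1+ library, and libraries 8 and 10, which also had the highest summed megakaryocyte and platelet markers (92360 and 115200 CPM), were the highest. The part of such cells in Pcdh7 was not tested. In log2 terms the fractions differed by -3.32 (SE 0.62, adjusted p = 0.00176, edgeR), and it was called under all 22 alternative fits, at -7.54 to -2.40, the fit without libraries 8 and 10 among them. Exons of Pcdh7 overlap those of 4932441J04Rik on the other strand, which was also lower in Sca-1+ ECs (log2 fold change -4.48, adjusted p = 0.00251, edgeR), and reads from the pair cannot be told apart without strand.

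Of the other delta-1 members, Pcdh9 reached 48 counts in Sca-1- library 8, 12 counts in 22, and 7 and 17 counts in Sca-1+ libraries 7 and 15, with none in the remaining libraries. Pcdh20 was counted in libraries 13 (13 counts), 15 (15 counts) and 10 (9 counts) only. Neither passed the filter.

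T-cadherin, Cdh13 (ENSMUSG00000031841, GRCm38 chr8:118283733-119324921), binds adiponectin and low-density lipoprotein. It was counted at 554, 711, 552 and 804 CPM in Sca-1+ libraries 7, 13, 15 and 19. In Sca-1- libraries 8, 10, 14, 16 and 22 it was counted at 55.1, 13.96, 39.1, 46.9 and 73.1 CPM. The fractions did not overlap, and Cdh13 was far above the floor in each library of both. The test put the difference at 3.84 in log2 (SE 0.43, adjusted p = 9.57e-05, edgeR), but it fell to -0.10 (adjusted p = 0.777, edgeR) under scaling to the endothelial markers.

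Of the 5 type I classical cadherins, which carry the catenin-binding tail, 4 were tested. Under TMM 1 was higher (Cdh4) and 1 lower (Cdh1) in Sca-1+ ECs, against 23.3% and 21.4% of all genes. Under endothelial scaling none was higher and 3 were lower (Cdh1, Cdh2 and Cdh15), against 1.61% and 87.1% of all genes. Cdh4 (R-cadherin, ENSMUSG00000000305, GRCm38 chr2:179442431-179899373), known in the retina and its vessels, was counted at 17.8, 15.4, 14.2 and 10.3 CPM in the Sca-1+ libraries and at 1.38, 0, 3.39, 0 and 0.855 CPM in the Sca-1- libraries. No library crossed over, and 10 and 16 had no count. This was a log2 fold change of 3.67 (SE 1.12, adjusted p = 0.0220, edgeR), with 3.55 and an adjusted p of 0.0506 without library 7, and -0.27 (adjusted p = 0.823) under scaling to the general endothelial markers.

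Cdh1 (E-cadherin, ENSMUSG00000000303, GRCm38 chr8:106603351-106670246), the cadherin of epithelia, was counted at 0, 0.034, 0 and 0.929 CPM in the Sca-1+ libraries. In the Sca-1- libraries it was counted at 3.18, 8.59, 11.4, 103 and 0.081 CPM, so that libraries 8, 10, 14 and 16 lay above the Sca-1+ libraries and 22 lay among them. The difference was -6.73 on the log2 scale (SE 2.01, adjusted p = 0.0199, edgeR). It missed the threshold without library 7, 13 or 15 (adjusted p = 0.0515 to 0.0549, edgeR) and by limma voom (adjusted p = 0.146), and without library 16, which held 3091 of the 3562 counts, it was -4.60 (adjusted p = 0.0497, edgeR).

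Cdh2 (N-cadherin, ENSMUSG00000024304, chromosome 18), which links ECs to mural cells, was counted at 6.27, 1.09, 5.25 and 10.2 CPM in the Sca-1+ libraries and at 12.0, 2.51, 0.297, 4.28 and 4.48 CPM in the Sca-1- libraries. The fractions overlapped almost wholly, although 11 smooth muscle and pericyte markers summed to 805 to 1750 CPM in Sca-1+ libraries and 21.9 to 101 CPM in Sca-1- libraries. The fitted log2 fold change was 0.28 (95% interval -1.60 to 2.16, adjusted p = 0.812, edgeR).

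Cdh15 (M-cadherin, ENSMUSG00000031962, chromosome 8), a cadherin of muscle precursors, was counted at 0.954, 0, 0.622 and 0.736 CPM in the Sca-1+ libraries and at 5.05, 1.05, 0, 4.48 and 0.366 CPM in the Sca-1- libraries. Libraries 8 and 16 were highest and the fractions overlapped. As a log2 fold change this was -1.91 (95% interval -4.97 to 1.14, adjusted p = 0.284, edgeR).

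Cdh3 (P-cadherin), the fifth type I member and the neighbour of Cdh1 at 46.1 kb, had 8, 0, 20 and 24 counts in the Sca-1+ libraries and none in any Sca-1- library. Its mean in Sca-1+ ECs was at least 3.20-fold higher than the mean floor of the Sca-1- libraries. It did not pass the filter and was called, higher in Sca-1+ ECs, only in the fit without a filter, as was Cdh26, an unusual cadherin of mucosal epithelium, which had 20, 0, 8 and 16 counts in the Sca-1+ libraries, none in the Sca-1- libraries and a mean at least 2.67-fold above their mean floor.

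Type II cadherins are a group best known from neurons and mesenchyme, and of its 12 members 5 had no count, 2 were tested and none was called under TMM. Under endothelial scaling Cdh11 was lower (-3.51, adjusted p = 0.00126, edgeR), as were 87.1% of all genes. Cdh11 (ENSMUSG00000031673, chromosome 8), the cadherin of osteoblasts and mesenchyme, was counted at 30.4, 1.94, 12.1 and 11.9 CPM in the Sca-1+ libraries and at 18.5, 6.28, 3.27, 9.80 and 7.37 CPM in the Sca-1- libraries. The ranges overlapped, with library 13 lowest of all. The fitted log2 fold change was 0.64 (95% interval -0.87 to 2.15, adjusted p = 0.471, edgeR).

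Cdh6 (K-cadherin, ENSMUSG00000039385, chromosome 15), known in the kidney, was counted at 1.33, 2.08, 1.62 and 2.44 CPM in the Sca-1+ libraries and at 1.26 CPM in Sca-1- library 8, with 0 counts in the other 4. The fractions did not overlap, although library 8 lay just below the lowest Sca-1+ library. In log2 terms the fractions differed by 2.93 (SE 1.43, adjusted p = 0.121, edgeR), and 8.56 (adjusted p = 0.000724) without library 8. Cdh24 had 1 to 11 counts in the Sca-1+ libraries and 0 to 13 counts in the Sca-1- libraries and did not pass the filter.

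Cdh23 (ENSMUSG00000012819, GRCm38 chr10:60302748-60696490) encodes a long cadherin that forms the tip links of inner-ear hair cells together with the product of Pcdh15. It was counted at 1.70, 7.42, 7.29 and 8.09 CPM in the Sca-1+ libraries and at 37.5, 62.1, 11.0, 15.8 and 11.6 CPM in the Sca-1- libraries. Every Sca-1- library was above every Sca-1+ library, with 8 and 10 the highest, as for Pcdh7, and 7 the lowest. The test put the difference at -2.17 in log2 (SE 0.65, adjusted p = 0.0205, edgeR), and -1.07 (adjusted p = 0.122) without libraries 8 and 10. Its partner Pcdh15 did not exceed 1 count in a library.

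**Figure D2:**
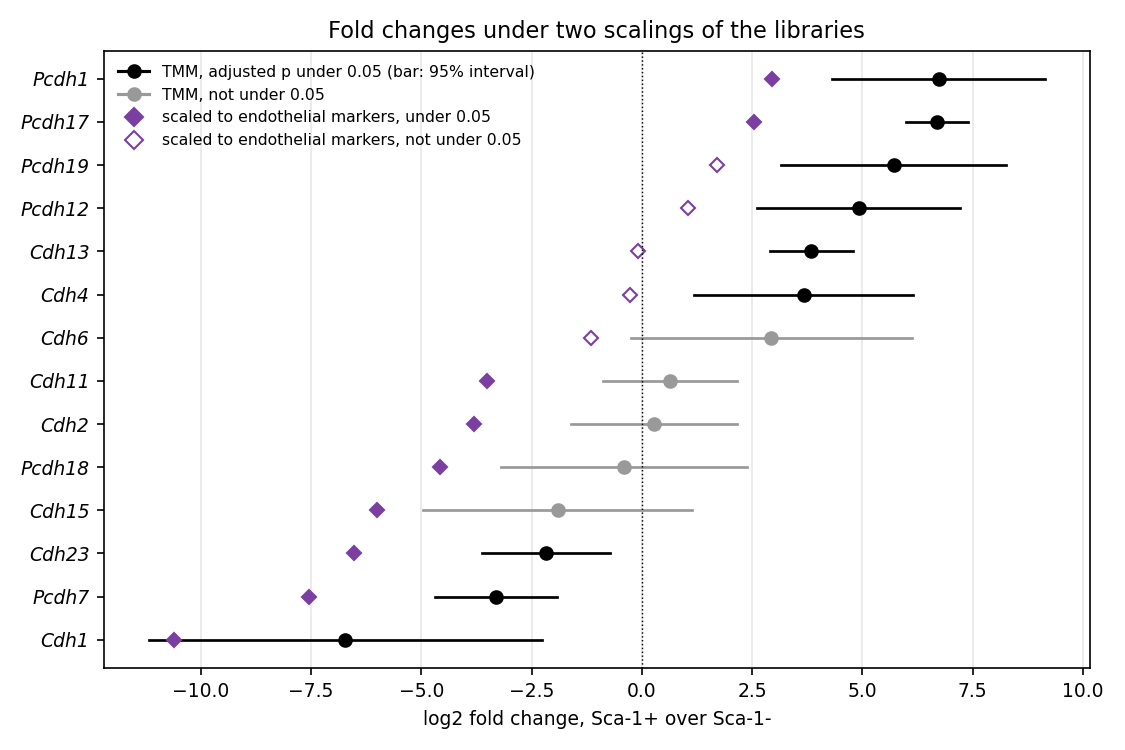
Log2 fold change of each tested member, Sca-1+ over Sca-1-, on the horizontal axis. Circles are the TMM-scaled fit with 95% intervals as bars, black where the adjusted p was under 0.05 and grey where it was not, and purple diamonds are the fit scaled to the general endothelial markers, filled where called. Each diamond lies to the left of its circle, with Pcdh1 (2.95) and Pcdh17 (2.53) still higher and Cdh13 (-0.10) and Cdh4 (-0.27) past 0.

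The members were then compared in level, as CPM per kb of exon. In Sca-1+ ECs Cdh13 stood at 58.3 ± 11.0 CPM per kb (SD, n = 4), next to Cdh5 at 62.9 ± 6.47 CPM per kb, a difference within the spread between libraries. Well below came Pcdh12 at 5.40 ± 1.66, Pcdh17 at 5.38 ± 1.04 and Pcdh1 at 4.85 ± 0.492 CPM per kb, whose ranges overlapped, and then Cdh4 at 1.99 ± 0.433 CPM per kb. Cdh13 made up 63.9% to 77.8% of the summed level per kb of the members in the Sca-1+ libraries.

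In Sca-1- ECs the order was different and loose. Cdh1 had the highest mean, 5.50 ± 9.52 CPM per kb (SD, n = 5), but through library 16 alone (22.4 CPM per kb). Without it the mean of Cdh1 was 1.27 ± 1.12 CPM per kb (SD, n = 4), and its median over the 5 libraries was 1.88 against 4.18 for Cdh13 and 2.65 CPM per kb for Pcdh7. By the mean there followed Cdh13 at 4.06 ± 1.94, Cdh5 at 1.70 ± 0.932 and Cdh23 at 1.63 ± 1.31 CPM per kb, with Pcdh7 between them at 3.99 CPM per kb, and the spreads of these neighbours overlapped. Cdh13 made up 7.6% to 48.4% of the summed level. The sum over members was 73.4 to 96.1 CPM per kb in the Sca-1+ libraries and 9.93 to 34.8 CPM per kb in the Sca-1- libraries. Between 12 and 19 members were above the floor in the Sca-1+ libraries and between 8 and 14 in the Sca-1- libraries.

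Cdh5, the cadherin of the endothelial junction, gave a scale within each library that does not depend on how libraries were normalised. It was itself higher in Sca-1+ ECs by 5.20 on the log2 scale (SE 0.43, adjusted p = 2.56e-05, edgeR), with means of 264 CPM in Sca-1+ libraries (SD 27.2, n = 4) and 7.14 CPM in Sca-1- libraries (SD 3.92, n = 5). The 6 members higher in Sca-1+ ECs were set against it as log2 ratios of counts (0.5 added to both), a comparison chosen after the data were seen, and tested with a two-sided exact permutation test over the 9 libraries, adjusted over the 6 members.

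Relative to Cdh5, Cdh13 was lower in Sca-1+ ECs and Pcdh1 was higher. The 6 members were picked by their difference in these same libraries, so the test gives no independent support for Pcdh1 being higher. Cdh13 had 186% to 303% of the counts of Cdh5 in the Sca-1+ libraries and 357% to 998% in the Sca-1- libraries. The fractions did not overlap (difference in mean log2 ratio -1.38, exact permutation p = 0.016, adjusted p = 0.048). Under TMM Cdh5 was higher in Sca-1+ ECs by 5.20 in log2 and Cdh13 by 3.84. Any gene that differs less than Cdh5 is lower relative to it, so this is not a result particular to Cdh13. Pcdh1 had 13.2% to 18.4% of the counts of Cdh5 in the Sca-1+ libraries and 0% to 11.4% in the Sca-1- libraries (difference 3.33, exact permutation p = 0.016, adjusted p = 0.048), where 3 Sca-1- libraries had no count of Pcdh1 and their ratio was set by the 0.5 added. For the other 4 members the fractions overlapped and no difference passed. These were Pcdh17 (difference 1.28, exact permutation adjusted p = 0.16), Pcdh19 (1.63, 0.35), Pcdh12 (1.24, 0.5) and Cdh4 (0.17, 0.93).

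Of the members outside these 6, and without a test, 5 were lower relative to Cdh5 in Sca-1+ ECs with no overlap. Cdh11 had 0.827% to 12.1% of the counts of Cdh5 in the Sca-1+ libraries and 60.6% to 257% in the Sca-1- libraries. Cdh2 had 0.464% to 3.72% against 5.51% to 162%, Cdh23 0.680% to 3.16% against 120% to 2540%, Pcdh7 0.734% to 2.68% against 103% to 2750%, and Cdh1 0% to 0.338% against 1.11% to 781%. Cdh5 itself stood at 2.44 to 13.2 CPM in the Sca-1- libraries. As Cdh5 differed by 5.20 in log2 and the median gene by 0.07, a gene alike in both fractions is also lower relative to Cdh5. The share of all genes without overlap on this scale was not computed, so these 5 are not a result particular to the members.

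**Figure D3:**
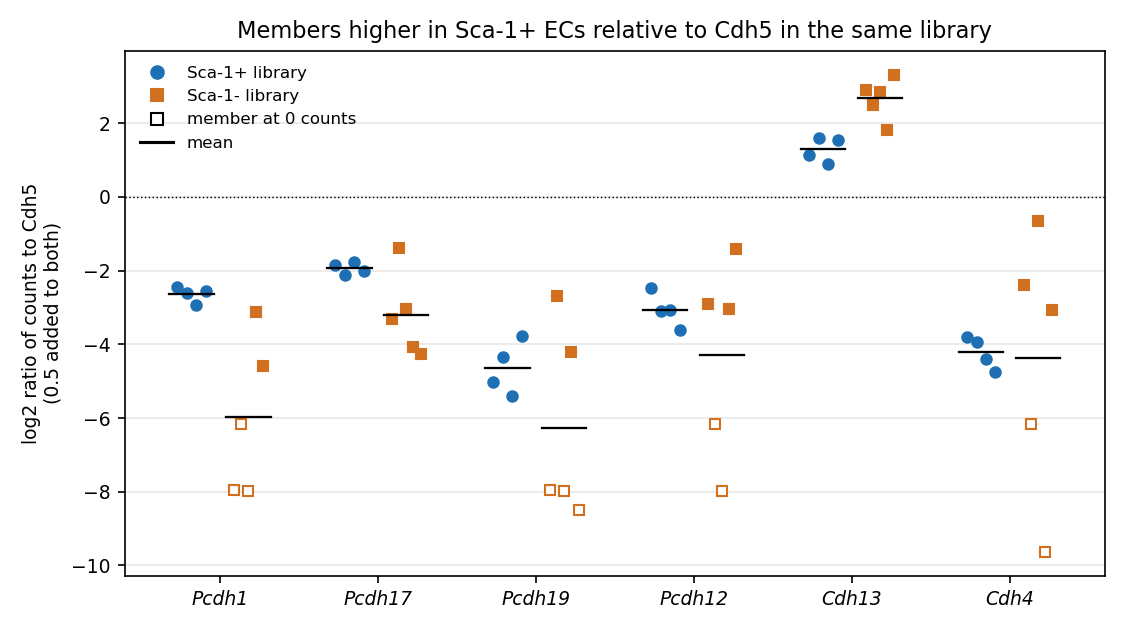
Log2 ratio of the counts of each member higher in Sca-1+ ECs (under TMM scaling) to those of Cdh5 in the same library, with 0.5 added to both counts, in Sca-1+ libraries (blue circles, n = 4) and Sca-1- libraries (orange squares, n = 5), and black bars for the means. Open symbols are libraries with no count of the member. Of these 6 members Pcdh1, higher, and Cdh13, lower in Sca-1+ ECs, did not overlap between the fractions.

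Several members varied among libraries of one fraction together with markers of other cells. Cdh1, which is known on basophil and mast cell progenitors as well as on epithelia, was set beside 10 basophil and mast cell markers. In the Sca-1- libraries the summed level of these markers was 13800 CPM in 16, 2435 in 14, 2182 in 10, 1035 in 8 and 626 in 22. Gata2, which is not particular to these cells, made up 928 CPM of the sum in library 8 and 1825 CPM in 10. Without Gata2 the other markers summed to 13200 CPM in 16, 1924 in 14, 357 in 10, 296 in 22 and 107 in 8. Cdh1 was also highest in 16, then 14, then 10, but it was higher in 8 (3.18 CPM) than in 22 (0.081 CPM), the reverse of the markers without Gata2. In the Sca-1+ libraries the markers lay between 140 and 271 CPM, with library 19 highest in both, also without Gata2 (105 CPM against 32.5 to 62.7 CPM). Of the 10 markers 8 were tested and 7 were lower in Sca-1+ ECs under TMM, against 21.4% of all genes. Tpsb2 was at 0 in every library. The 10 epithelial markers were near 0, with 0.414 to 2.56 CPM in all in the Sca-1+ libraries and 1.19 to 5.05 CPM in the Sca-1- libraries, and with Krt7, Krt14 and Krt19 at 0 throughout. The part of basophil and mast cells in the level of Cdh1 was not tested.

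Cdh2, Cdh11, Cdh15 and Pcdh18 were lowest in library 13 among the Sca-1+ libraries and in library 14 among the Sca-1- libraries. The summed level of 14 stromal and osteoblast markers was also lowest there, at 734 CPM in 13 (up to 3330 CPM in the others) and 3850 CPM in 14 (up to 45100 CPM in the others), where Col1a1 alone gave 2028 CPM in 14 and 27570 CPM in 8. Library 8, which had the highest of these sums, was the highest Sca-1- library for Cdh2, Cdh11 and Cdh15. For Pcdh18 the highest was library 16. Of the 14 markers 3 were higher and 3 lower in Sca-1+ ECs under TMM, against 23.3% and 21.4% of all genes. None was at 0 in all libraries. The labels of 13 and 14 also share a CD45 tag, which other Sca-1- libraries carry too, and have consecutive end numbers. Whether they share a mouse or a sort is not stated. The part of stromal cells in these members was not tested.

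**Figure D4:**
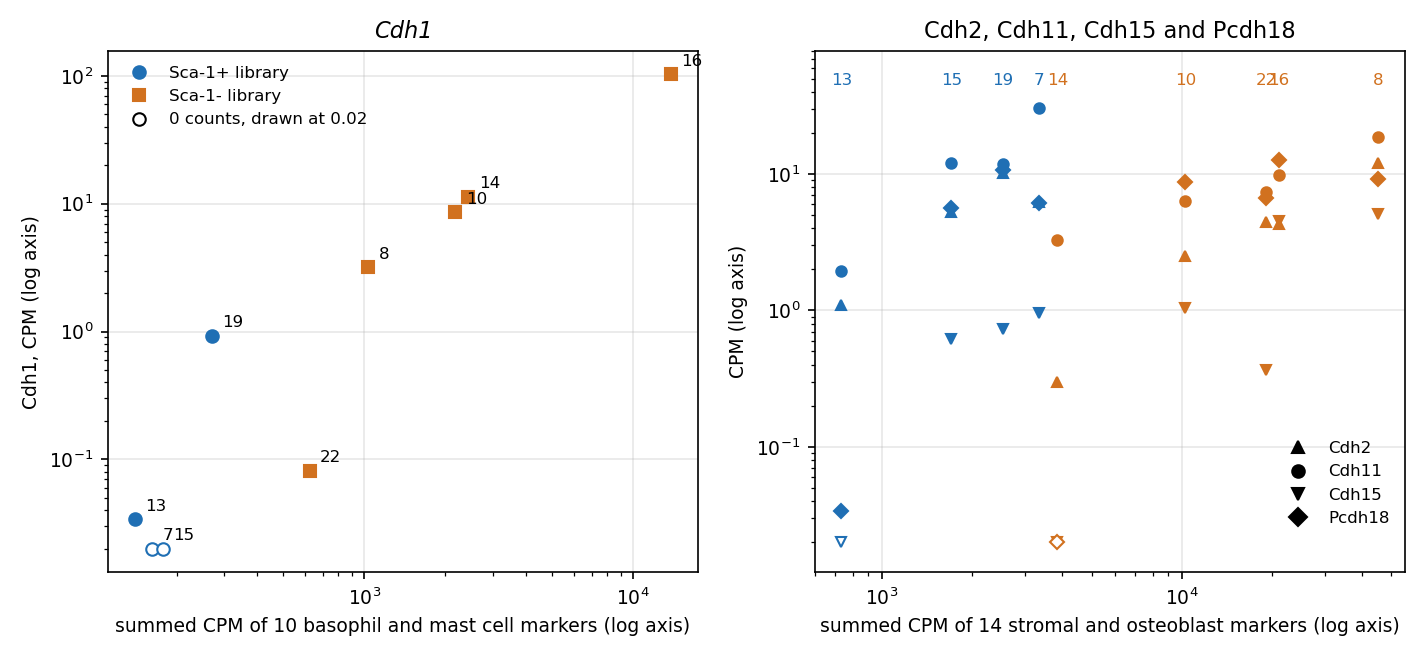
Left, Cdh1 (CPM, log axis) against the summed CPM of 10 basophil and mast cell markers (log axis) in each library, with its end number. Right, Cdh2, Cdh11, Cdh15 and Pcdh18 (CPM, log axis) against the summed CPM of 14 stromal and osteoblast markers, with end numbers above the points. Blue is Sca-1+, orange is Sca-1-, and open symbols at 0.02 are libraries with 0 counts (Cdh15 and Pcdh18 coincide there in library 14). Gata2 makes up most of the left-hand sum in libraries 8 and 10. Cdh1 was highest in library 16, and the members on the right were lowest in 13 and 14.

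The proteins that cadherins work with were counted by lists. Of 28 adherens junction partners 24 were tested, of which 14 were higher and 5 lower in Sca-1+ ECs, against 23.3% and 21.4% of all genes, while under scaling to the general endothelial markers 1 was higher and 15 lower, against 1.61% and 87.1% of all genes. Without library 7, 8, 13 or 15, or with either block, the genes lower under TMM were 3. Among the called genes with an average log2 CPM of at least 3, the largest differences were in Ptprb (5.34), the phosphatase VE-PTP that acts on VE-cadherin, in afadin, listed as Mllt4 (4.43), which links nectins to actin, and in plakophilin 3, Pkp3 (-4.11), as log2 fold changes. The catenins beta-catenin (Ctnnb1, log2 fold change 1.58), plakoglobin (Jup, 2.73) and p120 (Ctnnd1, 2.38) were each higher under TMM scaling, while the alpha-catenin Ctnna1 (0.28, adjusted p = 0.580, edgeR), Ctnnal1 (0.55, 0.232), Ctnna3 (1.07, 0.525) and Arvcf (-0.54, 0.280) were not called.

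A list on cadherin switching held 14 genes, of which 9 were tested. It joined repressors of E-cadherin with the epithelial regulators Grhl2, Ovol1, Ovol2, Esrp1 and Esrp2. Under TMM 5 were higher (23.3% over all genes) and 1 lower (21.4%), and under the endothelial scaling 0 were higher (1.61%) and 5 lower (87.1%). Ovol1 was among the 5 higher, at a mean of 0.584 CPM in Sca-1+ ECs. Snai1 (log2 fold change 3.71) and Tcf4 (3.17) were higher and Zeb2 (-3.48) was lower in Sca-1+ ECs under TMM.

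The WAVE complex, which Pcdh17 and other delta-2 protocadherins recruit, had 10 of 11 subunit genes tested. Under TMM 1 was higher and 4 were lower, against 23.3% and 21.4% of all genes. With the endothelial scaling all 10 were lower, as were 87.1% of all genes. Without library 10 or by limma voom the number higher was 2, and with library-size scaling it was 3. Nckap1l, the haematopoietic form of the Nckap1 subunit, had a log2 fold change of -5.33, Cyfip2 of -4.18 and Abi3 of 2.58. The summed level of 10 leukocyte markers was 217 to 404 CPM in Sca-1+ ECs and 1910 to 4020 CPM in Sca-1- ECs, and its part in Nckap1l was not tested.

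For T-cadherin 6 partners and effectors were tested, with 2 higher and 2 lower under TMM, against 23.3% and 21.4% of all genes. All 6 were lower under the endothelial scaling, as were 87.1% of all genes. The number higher was 1 without library 7, 8, 10, 15, 19 or 22, by limma voom and with either block. Lims1 (log2 fold change -3.93) and Ilk (-3.21), which join integrins to actin, were lower. Adipoq, which encodes the ligand adiponectin, had a log2 fold change of 2.06 with overlapping fractions.

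Elsewhere in the cadherin superfamily 10 of 28 genes (Fat, Dachsous, flamingo, calsyntenin, Cdhr and desmosomal genes, Pcdh11x and the receptor kinase Ret) were tested. Under TMM 3 were higher (Fat4, Dchs1 and Ret) and 4 lower, against 23.3% and 21.4% of all genes. Under the endothelial scaling 0 were higher and 7 lower, against 87.1% of all genes lower. Calsyntenin 3 (Clstn3, log2 fold change -6.32), Cdhr4 (-3.39) and Fat1 (-2.07) were lower in Sca-1+ ECs. Of the 59 clustered protocadherins 34 were tested, with 14 higher and 0 lower under TMM (23.3% and 21.4% over all genes). The endothelial scaling left 2 higher and 4 lower (1.61% and 87.1% over all genes). Pcdhb9 had a log2 fold change of 4.25, and the summed level was 172 to 223 CPM in Sca-1+ ECs and 12.3 to 58.9 CPM in Sca-1- ECs. Genes of these clusters are alike in sequence or share exons, so counts of single ones are uncertain.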

How the data were processed

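RNA was extracted from sorted BM ECs, and per the labels libraries were made from 2 ng of RNA each with a low-input kit that amplifies whole transcripts. The authors deposited whole-number read counts per gene, not normalized, in 1 table for all libraries. The submitters' processing notes name STAR, featureCounts and mm10. Their versions, the annotation and the strand setting are not given in the sources used here. The kit adds no molecular identifiers, so floors cover counting error only. Every sample column was used.

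Differences were tested on all genes by edgeR 4.0.16 under R 4.3.3 (filterByExpr with its default minimum count, 10, and minimum total, 15, then TMM, quasi-likelihood F-test, two-sided, Benjamini-Hochberg adjustment over 15937 genes, threshold 0.05). Standard errors came from the F statistic and 95% intervals use its degrees of freedom. The biological coefficient of variation was 0.549. Libraries of one fraction were no copies of each other (chi-square per degree of freedom 36.8 to 538). Log2 CPM used a prior count of 2. Alternatives used DESeq2 1.42.0, limma 3.58.1 (voom), other scalings, filters, blocks and left-out libraries. The consecutive end numbers (7 and 8, 13 and 14, 15 and 16) were fitted as a block in one of them. The mouse number shared by the labels of 15 and 16 was fitted as a block in another.

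The members and the lists were chosen with earlier results of these data known, so no p was computed over a list. Every member passing the filter was named, then members with at least 10 counts in a library, and from each partner list the 3 called genes with the largest fold change and an average log2 CPM of at least 3. The catenins, Grhl2, Ovol1, Ovol2, Esrp1, Esrp2, Pecam1, Esam, Lyve1, Fat4, Dchs1 and Ret were named outside this rule, after their values were seen. So were Gata2, Col1a1, 4932441J04Rik and the marker genes at 0. Coordinates, exon lengths and overlaps came from GENCODE M21 on GRCm38, with all 33 members found. Of the listed symbols 5 (nectins and afadin) were matched by Ensembl identifier. Promoters came from RefSeq (GRCm38.p6). The edgeR step was first tested on simulated counts for this comparison with 200 genes changed among 15513, and it called 2.04% of those changed 2-fold, 41.7% at 4-fold, 82% at 8-fold and 89.6% at 16-fold. In the data 44.8% of genes were called, so the adjusted threshold was harder to pass in the simulation. These shares therefore do not measure what could be called in the data.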

Additional observations from a re-analysis of the deposited data

Results flagged for a closer look

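In 6 of 28 groups of libraries 1 library lay apart from the rest of its fraction in log2 CPM (by Dixon's criterion), where chance gives about 1 in 20. Cdh1 stood at 0.0144 in Sca-1+ library 19 (24 counts) and at -3.63 to -3.12 in the other Sca-1+ libraries. Cdh23 stood at 0.836 in Sca-1+ library 7 and at 2.88 to 3.03 in the others. Cdh15 had 0 counts in Sca-1+ library 13 (-3.63, others -0.51 to 0.05). Cdh6 had 21 counts in Sca-1- library 8 (0.425), and the others had 0 counts (-3.63). Pcdh18 had 1 count in Sca-1+ library 13 (-3.12, others 2.51 to 3.43) and 0 counts in Sca-1- library 14 (-3.63, others 2.75 to 3.68).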

How the results depend on the processing

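Scaling to the general endothelial markers moved the results most. It gave 2 members higher and 7 lower, 257 genes higher and 13878 lower over all genes, 10 called WAVE genes and 6 called clustered protocadherins. It reversed Cdh11 (-3.51), Cdh13 (-0.0992), Cdh2 (-3.81), Cdh4 (-0.271) and Cdh6 (-1.15) as log2 fold changes, took Pcdh12 (1.05, adjusted p = 0.34, edgeR) and Pcdh19 (1.70, 0.205) past the threshold, and brought in Cdh15 (-6.01) and Pcdh18 (-4.57). The ratio to Cdh5, chosen after seeing the data, reversed Cdh13 (-1.38).

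The labels share no end number between the fractions, but those of libraries 15 and 16 share a further number, taken here as a mouse number. Deviations from the fraction means correlated at 0.147 for libraries 7 and 8, 0.148 for 13 and 14 and 0.042 for 15 and 16. The 17 other pairs lay at -0.191 to 0.065, so 7 with 8 and 13 with 14 were above all of them. Whether consecutive end numbers mark pairs is not stated, and only 15 and 16 also share the mouse number. The main fit took none of these 3 pairs into account. With these 3 pairs as a replicate block 2265 genes were higher and 2075 lower, 4 genes of the other cadherin superfamily and 9 clustered protocadherins were called, and Cdh23 (-1.91) and Cdh4 (4.24) were no longer called. In the same 6 libraries without the block Cdh2 was -0.39, and Cdh23 (-1.97) and Cdh4 (3.31) were not called either. A block of the mouse number shared by 15 and 16, fitted alone, called the same 9 members.

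Leaving out 1 library gave log2 fold changes of -0.0567 to 1.01 for Cdh11, -0.915 to 0.0125 for Pcdh18 and -0.157 to 0.888 for Cdh2. It gave 5 to 7 members higher and 2 to 3 lower, and 9 to 16 clustered protocadherins (9 without library 15). The signs turned without library 7 (Cdh11), 13 (Pcdh18), and 19 or 14 (Cdh2, -0.122 without 14). By limma voom 29 clustered protocadherins were called, Cdh1 was not (adjusted p = 0.146) and Cdh6 was (5.18). Of the alternatives also chosen after seeing the data, leaving out libraries 8 and 10 gave 7 members higher and 2 lower, with Cdh6 (8.68) called and Cdh23 not, and leaving out 13 and 14 gave 6 higher and 2 lower, with Cdh1 not called (-6.62, adjusted p = 0.0606, edgeR). Of 313 member values under these alternatives 280 kept their direction and side of the threshold. The cause of each change was not tested. The 19 members that were not tested had too few counts to pass the filter, and the part of depth in this was not tested. Few 2-fold differences were called in the simulated counts, where far fewer genes were changed than were called in the data.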
